A study of Mus musculus with 6 samples.

Results

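The contractile and cytoskeletal genes of myofibroblasts were followed in mouse liver RNA: Acta2, Tagln, Cnn1, Myl9, Tpm1, Tpm2, Myh11, Des, Vim and S100a6. They were taken by gene symbol, 10 of the 22183 symbols in the deposited count table. The choice used the known roles of these genes and no measured value, although it was made with earlier results of the same livers known. The 3 DOX libraries came from livers of BucheKI/KI-Hep mice that had received DDC and carried the label DOX. The 3 PBS libraries came from livers of the same genotype, also given DDC, and carried the label PBS (phosphate-buffered saline). All 6 libraries therefore shared the knock-in and the injury. In mouse studies DDC commonly means a feed additive that disturbs haem synthesis and injures the ducts, with scarring near the portal veins, and DOX is commonly short for doxycycline. The labels spell out neither of them nor the prefix S2W of the sample names, and they name no promoter for the knock-in, no age and no sex. The series describes butyrylcholinesterase as overexpressed in hepatocytes and names hepatic stellate cell activation in its title. The contrast is DOX against PBS, and the raised enzyme and the agent itself cannot be told apart in it.

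A myofibroblast is a fibroblast-like cell that carries the contractile machinery of smooth muscle. In scarred liver it arises mainly from hepatic stellate cells and from portal fibroblasts, and smooth muscle actin is its usual histological mark. The machinery is built from actin thin filaments wound with tropomyosin, bound along their length by transgelin and calponin, pulled by myosin II and held in place by intermediate filaments. Several of these genes are driven by serum response factor and its myocardin-related partners through a DNA element called the CArG box. Smooth muscle of vessels and bile ducts carries the same genes, and vimentin is found in nearly every cell of mesenchymal or blood origin. In RNA of whole liver, a change in the number of such cells and a change in RNA per cell cannot be told apart.

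Of the 10 genes, 9 passed the filter on low counts and 0 differed between DOX and PBS livers by edgeR's quasi-likelihood test, with 0.05 as the limit on the adjusted p. Over all 14681 genes tested, 27.5% passed, of which 13.5% were higher and 14% lower. At an unadjusted p under 0.05 the number was 1 of 9, which was Tagln, against 40% of all genes. The median log2 fold change of the 9 genes was 0.05, and single values ran from -0.23 to 0.62, against a median of -0.0065 over all genes tested. DESeq2, run on the same genes, called 1 of the 9, again Tagln. Bche, the gene of the knock-in, stood at 1938, 1867 and 1763 CPM (normalised read counts, scaled to a common library size with TMM factors) in DOX 1 to 3, against 177, 177 and 206 CPM in PBS 1 to 3, with every DOX library above every PBS library. Total counts per library ran from 32476725 to 40298256 in DOX and from 40592030 to 41921404 in PBS. Whether each library stands for its own animal is not stated in the labels, so p-values reflect only the spread among these libraries, and that spread may be technical.

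**Figure D1:**
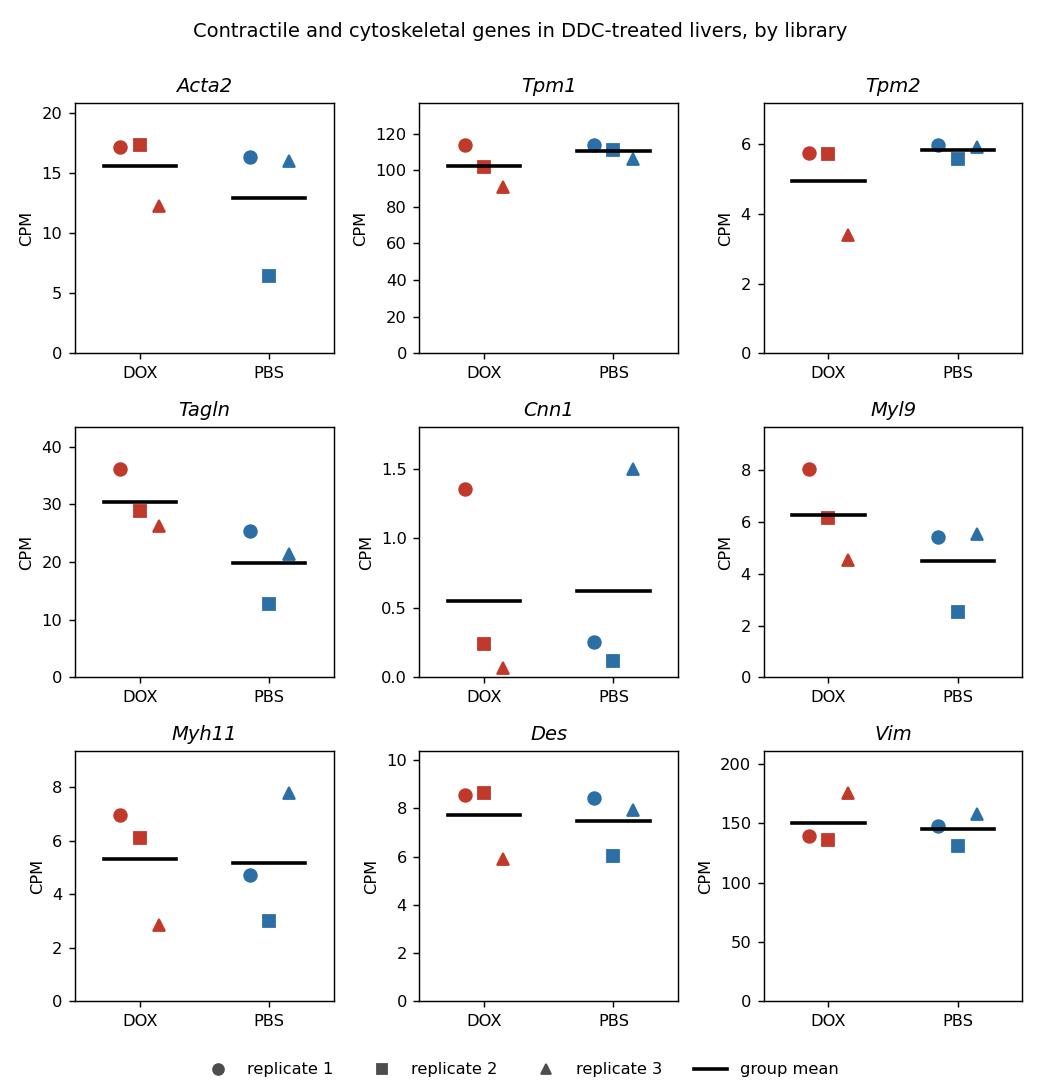
Level of 9 genes in each library, in CPM on linear axes that start at 0, with DOX left and PBS right. Symbols mark the replicate and bars the mean of 3 libraries. Tagln is the gene whose DOX libraries all lie above its PBS libraries (26.3 to 36.2 against 12.7 to 25.3 CPM), and the low square in PBS is PBS 2.

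Acta2 encodes smooth muscle alpha actin, the thin filament actin of myofibroblasts and smooth muscle. The gene lies on the minus strand of chromosome 19, at 34241090 to 34255590 in GRCm38. It had 17.2, 17.4 and 12.3 CPM in DOX 1 to 3, against 16.4, 6.41 and 16 CPM in PBS 1 to 3. All libraries except PBS 2 lay between 12.3 and 17.4 CPM, and the groups overlapped. Mean levels were 15.6 ± 2.90 CPM in DOX and 13 ± 5.67 CPM in PBS (SD, n = 3 each). This is a log2 fold change of 0.27 (SE 0.35, edgeR adjusted p = 0.611), with a 95% interval from -0.57 to 1.11, or from 0.674-fold to 2.17-fold. Leaving out PBS 2 turned the log2 fold change to -0.05 (adjusted p = 0.86, the highest of the alternatives, whose lowest was 0.434). A fall of the size seen for the collagen gene Col3a1 (log2 fold change -1.47, SE 0.18, adjusted p = 0.000395) lies outside the interval of Acta2.

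Tropomyosins wind along the actin filament and set where myosin may bind. Tpm1, on chromosome 9 at 67022590 to 67049406, had 114, 102 and 90.8 CPM in DOX 1 to 3, against 114, 111 and 106 CPM in PBS 1 to 3. Its groups overlapped, with DOX 2 and DOX 3 the lowest of the 6 libraries. The log2 fold change was -0.11 (SE 0.11, 95% interval -0.35 to 0.13, edgeR adjusted p = 0.475). Tpm2, on chromosome 4 at 43514711 to 43523765, had 5.74, 5.72 and 3.40 CPM in DOX 1 to 3, against 5.99, 5.57 and 5.93 CPM in PBS 1 to 3. The PBS libraries lay close together, at 5.83 ± 0.227 CPM (SD, n = 3), and DOX 3 alone was far below them. The log2 fold change of Tpm2 was -0.23 (SE 0.21, 95% interval -0.69 to 0.23, adjusted p = 0.445). Both genes make several splice forms, of which some are used by muscle and some by most cells, and the deposited totals per symbol do not separate them.

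Tagln encodes transgelin, also called SM22-alpha, an actin-bundling protein of smooth muscle and an early mark of the myofibroblast. It had 36.2, 28.8 and 26.3 CPM in DOX 1 to 3, against 25.3, 12.7 and 21.3 CPM in PBS 1 to 3. Each DOX library lay above each PBS library, as in 21.8% of all genes tested (the reverse order held for 22.3% of them and for 0 members), and the gap between DOX 3 and PBS 1 was narrow. The log2 fold change was 0.62 (SE 0.24, 95% interval 0.08 to 1.16), with a p of 0.0282 that became 0.0829 after Benjamini-Hochberg adjustment in edgeR. The adjusted p was 0.0216 with DESeq2 and 0.0287 without PBS 1, and over the alternatives it ran from 0.0163 to 0.329 while the log2 fold change stayed between 0.39 and 0.84. Without PBS 2, the lowest library, the log2 fold change was 0.39 (adjusted p = 0.119). The gene lies at 45929619 to 45936058 of chromosome 9 on the minus strand, and 67.9% of its exonic bases are shared with exons on the opposite strand, those of Pcsk7 and Gm48529. Whether the authors' counting used strand is not given in the sources used here, so reads of these genes may not have been told apart. Gm48529 holds 55.4% of the 50-base stretches of Tagln transcripts against 2.98% for Pcsk7. The deposited counts have no row under the symbol Gm48529, so no level is given for it. Pcsk7 had a log2 fold change of -0.28 (edgeR adjusted p = 0.128), and its groups overlapped. The part of either gene in the Tagln counts was not tested.

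Cnn1 encodes calponin, which binds actin and restrains the myosin motor in differentiated smooth muscle. It was the scarcest of the tested genes, with 51, 8 and 2 reads in DOX 1 to 3, against 11, 5 and 64 reads in PBS 1 to 3. In CPM this was 1.35, 0.236 and 0.0635 in DOX, against 0.253, 0.114 and 1.5 in PBS. One library of each group, DOX 1 and PBS 3, thus held most of the reads. The spread was 21.3-fold within DOX and 13.1-fold within PBS, and the log2 fold change of -0.14 had a 95% interval from -2.96 to 2.68 (SE 1.18, edgeR adjusted p = 0.947). The gene lies at 22099216 to 22109630 of chromosome 9.

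Smooth muscle myosin II was represented by its regulatory light chain gene Myl9 and its heavy chain gene Myh11. Myl9, on chromosome 2 at 156775420 to 156781658, had 8.07, 6.16 and 4.54 CPM in DOX 1 to 3, against 5.44, 2.53 and 5.53 CPM in PBS 1 to 3. DOX 1 was highest and PBS 2 lowest, and the groups overlapped. The log2 fold change was 0.48 (SE 0.30, 95% interval -0.19 to 1.15, edgeR adjusted p = 0.266). Myh11, on chromosome 16 at 14194535 to 14291372, is restricted to mature smooth muscle more tightly than the other genes here. It had 6.96, 6.10 and 2.86 CPM in DOX 1 to 3, against 4.70, 3.01 and 7.80 CPM in PBS 1 to 3. PBS 3 and DOX 1 were the highest, DOX 3 and PBS 2 the lowest. The log2 fold change of Myh11 was 0.04 (SE 0.40, 95% interval -0.88 to 0.97, adjusted p = 0.952). Its sign turned without DOX 1 (-0.20), DOX 2 (-0.05), PBS 1 (-0.02) or PBS 2 (-0.23), and adjusted p-values of the alternatives ran between 0.406 and 0.982.

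The intermediate filament genes differed little between the groups. Des encodes desmin, the filament of muscle cells and, in rodent liver, a classical mark of stellate cells, and lies on chromosome 1 at 75360329 to 75368579. It had 8.57, 8.66 and 5.90 CPM in DOX 1 to 3, against 8.45, 6.02 and 7.94 CPM in PBS 1 to 3, with a log2 fold change of 0.05 (SE 0.19, 95% interval -0.37 to 0.47, edgeR adjusted p = 0.879). A single library of each group, DOX 3 and PBS 2, was low, and the other 4 lay between 7.94 and 8.66 CPM. Of its exonic bases 5.86% overlap Gm15179 on the opposite strand. Vim encodes vimentin and lies on chromosome 2 at 13573927 to 13582826. It had 139, 136 and 176 CPM in DOX 1 to 3, against 148, 131 and 158 CPM in PBS 1 to 3, with a log2 fold change of 0.05 (SE 0.13, 95% interval -0.23 to 0.33, adjusted p = 0.818). The interval keeps the change of Vim between 0.851-fold and 1.25-fold, the narrowest but for Tpm1. For Des the sign turned without DOX 1 (-0.04), DOX 2 (-0.03) or PBS 2 (-0.09), and for Vim without DOX 3 (-0.08) or PBS 2 (-0.02). Under scaling by library size alone, which moved the median of all genes to -0.16, Myh11, Des and Vim each had a log2 fold change of -0.11, close to that median.

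S100a6 encodes calcyclin, a small calcium-binding protein known from proliferating fibroblasts, ducts and mesothelium. It had 2 reads in DOX 1 and 0 in each of the other 5 libraries, and it did not pass the filter on low counts. A count of 0 allows 0.0884 CPM in DOX 2, 0.0952 CPM in DOX 3 and up to 0.0703 CPM in the PBS libraries, where 3 counts are taken as the limit and counting error alone is covered. The deposited table also holds a symbol that joins this gene to its neighbour, S100a6-s100a7a, with 1 read in PBS 2 and 0 in the other libraries. Other genes of the same S100 cluster were well covered, such as S100a10, a partner of annexin A2, at 125 ± 8.79 CPM in DOX and 122 ± 20.4 CPM in PBS, and S100a11 at 66.9 ± 4.93 CPM in DOX and 82.7 ± 9.79 CPM in PBS (SD, n = 3 each). How the authors treated reads that fall in more than 1 annotated gene is not given in the sources used here, and its part in the S100a6 value was not tested. The gene lies at 90612882 to 90624181 of chromosome 3, and no fold change is given for it.

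Per unit of gene length the genes spanned a wide range, given here in the deposited FPKM (fragments scaled by gene length and by the library total). Vim was highest, at 77.8 ± 13.4 FPKM in DOX and 83.7 ± 5.57 FPKM in PBS (SD, n = 3 each). Tagln (18.1 ± 2.85 in DOX and 13.1 ± 4.24 in PBS) and Tpm1 (17.5 ± 1.74 in DOX and 21.2 ± 1.34 in PBS) followed, with overlapping ranges in DOX, whereas in PBS each Tpm1 value lay above each Tagln value. Myl9 and Acta2 had 5.24 ± 1.41 and 5.21 ± 0.868 FPKM in DOX, and 4.19 ± 1.53 and 4.80 ± 2.05 FPKM in PBS, and their order was not separable by that spread. Des had 2.38 ± 0.440 FPKM in DOX and 2.57 ± 0.418 in PBS, and Tpm2 1.39 ± 0.355 in DOX and 1.83 ± 0.0655 in PBS. Myh11 had 0.748 ± 0.295 FPKM in DOX and 0.810 ± 0.355 in PBS, and Cnn1 0.244 ± 0.309 in DOX and 0.302 ± 0.364 in PBS. The genes most tied to mature smooth muscle, Myh11 and Cnn1, were therefore the least abundant of the 9 in both groups.

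The 9 genes varied among the libraries in more than one pattern. Acta2, Tagln, Cnn1, Myl9 and Myh11 shared a low value in PBS 2, at 0.395, 0.544, 0.130, 0.462 and 0.482 of the mean of PBS 1 and PBS 3. A level under 0.55 of that mean, a limit set after these values were seen, was found for 5 of the 9 genes and for 2.52% of all genes tested. PBS 2 was the lowest PBS library for 8 of the 9 genes and for 31.5% of all genes tested. DOX 3 was the lowest DOX library for 8 of the 9 genes, Vim being the exception, and for 31.5% of all genes. Cnn1 followed another pattern, with high values in DOX 1 and PBS 3, and Actg2, the actin of visceral smooth muscle, did the same. The low share of Cnn1 in PBS 2 owes much to the high PBS 3, as its reads were 11, 5 and 64 in PBS 1 to 3. Actg2 had 91, 21 and 4 reads in DOX 1 to 3, against 8, 2 and 75 reads in PBS 1 to 3. Myh11 carried both patterns. Lmod1, leiomodin of smooth muscle, had 1.08, 1.44 and 0.540 CPM in DOX 1 to 3, against 0.852, 0.365 and 0.820 CPM in PBS 1 to 3, and was lowest in PBS 2 as Acta2 was. With DOX 1 and PBS 3 both left out, a step chosen after seeing the data, 8 members could be tested and 0 passed in edgeR, with 0 at an unadjusted p under 0.05. Tpm1 and Vim were the steadiest, with a highest over lowest library of 1.26 and 1.34.

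**Figure D2:**
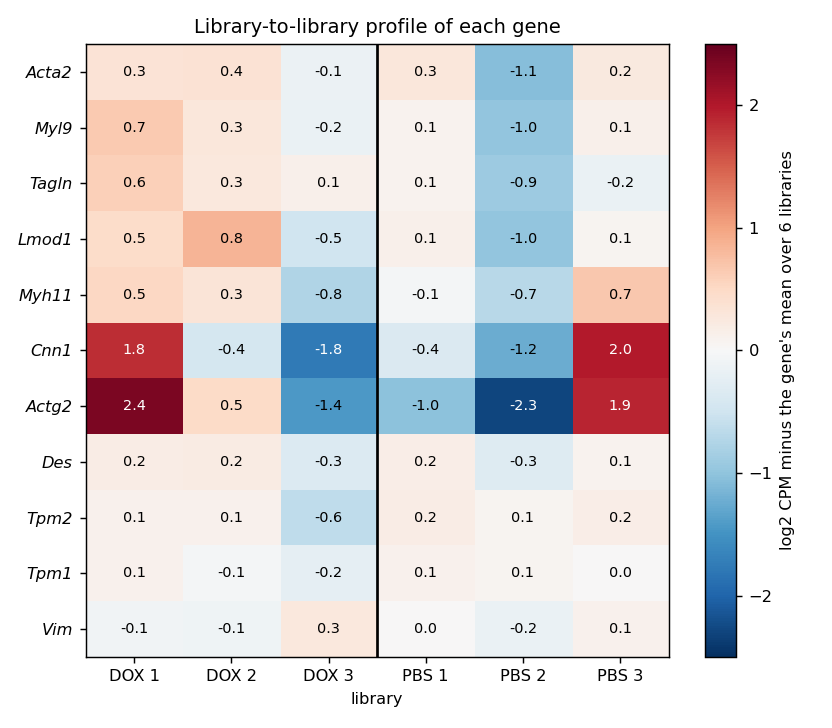
Heat map of log2 CPM minus each gene's own mean over the 6 libraries, with DOX 1 to 3 left of PBS 1 to 3 and red for higher, blue for lower. Acta2, Myl9, Tagln and Lmod1 are lowest in PBS 2, Cnn1 and Actg2 are high in DOX 1 and PBS 3, and Tpm1 and Vim stay near 0.

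Likeness of pattern was measured as the root mean square difference of centred log2 CPM over the 6 libraries. For Acta2 the closest of the genes compared was another member, Myl9, at 0.166, with Tagln at 0.252 and Des at 0.341. Among 12216 other genes, those close to Acta2 included Cyp2c38 (0.167), Rtn4rl2 (0.213), Mvd (0.221) and Ccdc171 (0.224). Cyp2c38, a cytochrome P450, had 25.8 CPM in PBS 2 and 48.0 to 53.5 CPM in the other 5 libraries, so a dip in PBS 2 was also found outside the contractile genes. For Vim the closest were Pbx3 (0.0504), Mast2 (0.0518), Pparg (0.0527), Hs3st3a1 (0.0550) and Myo5a (0.0563). These values rest on the same 6 libraries for every gene and are descriptions.

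RefSeq promoters of GRCm38.p6, from 250 bases before to 50 bases after a start site, were matched by symbol for 8 of the 10 members. They were searched on both strands, since the element is its own reverse complement, for the CArG box with at most 1 mismatch in its A and T core. Acta2 and Myl9 held such boxes, and the other 6 promoters held none of these letters. The Vim window, 13574061 to 13574360 of chromosome 2, lies inside the gene as placed above, as do the Acta2 boxes. For Vim the absence thus does not cover bases before that gene. The Tpm1 window (67049164 to 67049463) and the Tpm2 window (43523505 to 43523804) also lie mostly inside their genes. For Tpm1 and Tpm2 the absence thus covers few bases before the gene. The sites are shown because they match the element named above. Cnn1, with the lowest PBS 2 share of the members but only 5 reads there, was among the 6 without a box. Tagln and Myh11, also low in PBS 2, were not matched. Capitals mark the box within 30 bases.
Acta2, first box: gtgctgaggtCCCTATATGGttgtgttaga
Acta2, second box: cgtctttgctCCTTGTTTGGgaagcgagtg
Myl9, first box: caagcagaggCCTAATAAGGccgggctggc
Myl9, second box: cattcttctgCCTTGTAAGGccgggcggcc
The Acta2 windows are chr19:34255438-34255467 and chr19:34255388-34255417 on the minus strand, and the boxes begin 84 and 34 bases before the RefSeq start. The Myl9 windows are chr2:156775293-156775322 and chr2:156775355-156775384 on the plus strand, with boxes that begin 161 and 99 bases before the start. The first Myl9 box matches without a mismatch, as do boxes in 1.63% of all 32851 promoters, and the other 3 have 1 mismatch. A box of at most 1 mismatch was present in 9.98% of all promoters, and at least 2 in 0.822%. A match of letters does not show a bound site.

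The members were then set beside the wider machinery, from 6 lists of related genes chosen for their function. Of 103 tested genes in these lists 26 passed, 6 higher and 20 lower in DOX, or 25.2%, close to the 27.5% of all genes tested. The median log2 fold change was -0.03. The count of higher genes was 2 without DOX 1, 2 without DOX 3, 0 without PBS 1, 1 without PBS 2 and 1 without PBS 3, and that of lower genes was 13 without PBS 2. Scaled by library size alone 0 were higher and 35 lower.

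Of 24 tested genes of the thin filament and smooth muscle contractile apparatus, 2 rose and 6 fell (median log2 fold change -0.07). Cnn2, the calponin of non-muscle cells, stood at 14.5 ± 1.63 CPM in DOX and 24.3 ± 1.89 CPM in PBS (SD, n = 3 each; log2 fold change -0.75, edgeR adjusted p = 0.00194). Actn1, the actin crosslinker alpha-actinin, stood at 46.4 ± 2.70 CPM in DOX and 67.4 ± 3.92 CPM in PBS (log2 fold change -0.54, adjusted p = 0.00298). Both passed under all 15 alternatives. Smtn, smoothelin, had a log2 fold change of -0.66 (adjusted p = 0.0113, 0.053 without PBS 3, range 0.0015 to 0.134). Tagln2, the broadly expressed transgelin, had a log2 fold change of -0.41 (adjusted p = 0.0148, 0.07 without PBS 2, range 0.00294 to 0.07). Myh9, the heavy chain of non-muscle myosin, had 329.6 ± 35.7 CPM in DOX and 449.7 ± 46.8 CPM in PBS (log2 fold change -0.45, edgeR adjusted p = 0.0246). It no longer passed without DOX 1 (0.072), DOX 3 (0.088), PBS 1 (0.0716) or PBS 3 (0.0975), in a range of 0.00322 to 0.195. Csrp2, a LIM protein first known from smooth muscle, had a log2 fold change of -0.40 (adjusted p = 0.0318), and of the fits without 1 library it passed only without DOX 1, with values of 0.0815 without DOX 2, 0.0916 without DOX 3, 0.0671 without PBS 1, 0.112 without PBS 2 and 0.066 without PBS 3 (range 0.00763 to 0.112). The genes that rose were Myl12a, a regulatory light chain of non-muscle myosin (log2 fold change 0.37, adjusted p = 0.0337), and Actn4, an alpha-actinin of non-muscle cells (0.34, adjusted p = 0.0434). Of the fits without 1 library, Myl12a passed only without DOX 2, with 0.118 without DOX 1, 0.0877 without DOX 3, 0.104 without PBS 1, 0.1 without PBS 2 and 0.0883 without PBS 3 (range 0.00566 to 0.208). Actn4 passed in none of them, with adjusted p-values of 0.0921, 0.0547 and 0.0582 without DOX 1, 2 and 3, and of 0.145, 0.151 and 0.0631 without PBS 1, 2 and 3 (range 0.0104 to 0.208).

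**Figure D3:**
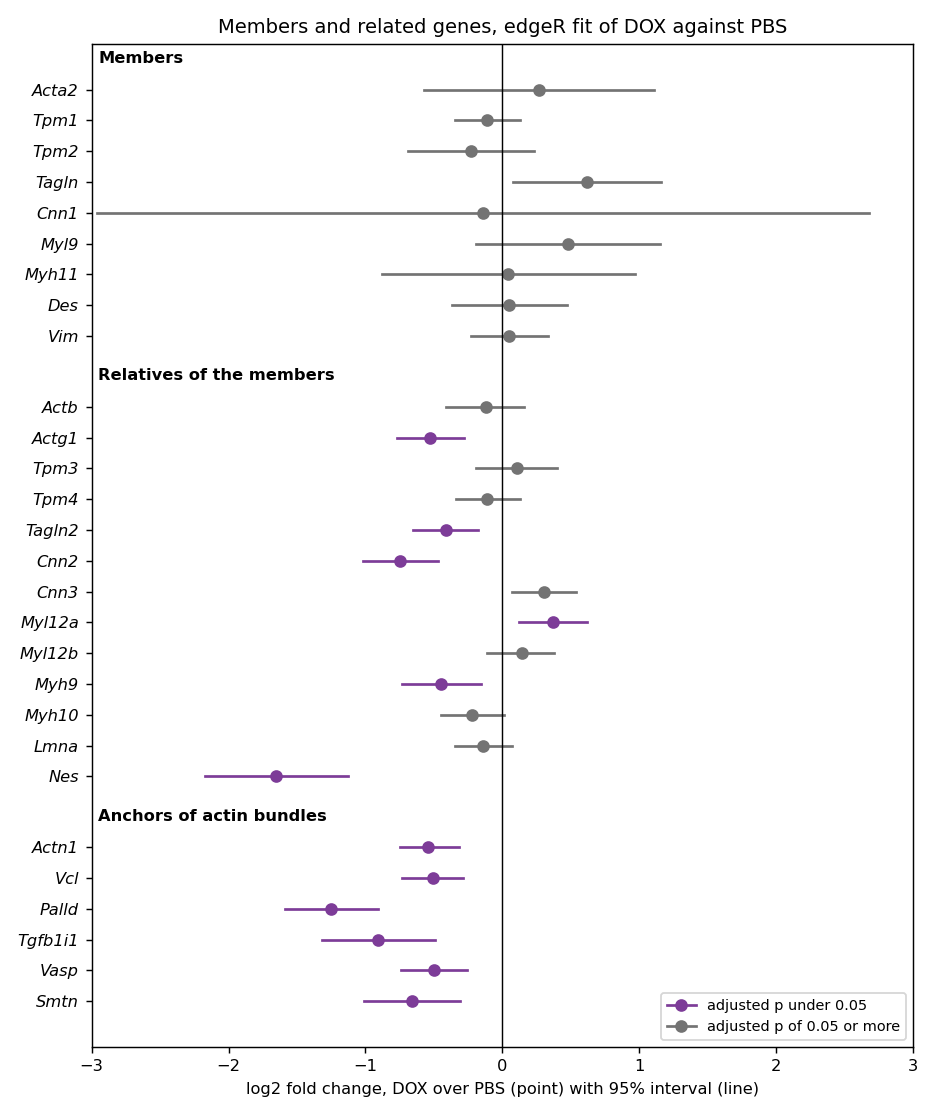
Log2 fold change of DOX over PBS (points) with 95% intervals (lines) from edgeR, in purple where the adjusted p was under 0.05. The 9 members are all grey, while Cnn2 (-0.75), Palld (-1.25), Tgfb1i1 (-0.91) and Nes (-1.65) lie left of 0. The relatives and anchors shown were picked after their values were seen. All anchors shown were called lower, so their contrast with the members is built in. Tns1 (0.43) and Actn4 (0.34), called higher, and the anchors that were not called are not drawn.

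Of 18 tested genes that anchor actin bundles to adhesions, 1 rose and 4 fell. Palld, palladin, an organiser of stress fibres, stood at 25.7, 37.5 and 28 CPM in DOX 1 to 3, against 64.5, 67.5 and 84.9 CPM in PBS 1 to 3. Every DOX library lay below every PBS library, as in 22.3% of all genes tested, and the log2 fold change was -1.25 (SE 0.16, edgeR adjusted p = 0.000528). Tgfb1i1, the adhesion protein Hic-5, had a log2 fold change of -0.91 (adjusted p = 0.00562), Vcl, vinculin, of -0.51 (adjusted p = 0.00434) and Vasp, an actin elongation factor, of -0.50 (adjusted p = 0.00677). With any single library left out all 4 still passed. Tns1, tensin, rose by 0.43 (adjusted p = 0.042), but not without DOX 2 (0.0788), DOX 3 (0.0999), PBS 1 (0.0739), PBS 2 (0.169) or PBS 3 (0.0633), in a range of 0.0146 to 0.182.

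Of 20 tested regulators of myosin phosphorylation and of serum response factor and its partners, 0 rose and 2 fell. Rock2, a kinase that keeps myosin phosphorylated, had a log2 fold change of -0.44 (edgeR adjusted p = 0.021), which did not pass without DOX 1 (0.072), DOX 3 (0.0596), PBS 2 (0.0844) or PBS 3 (0.0704), in a range of 0.00326 to 0.177. Yap1, a mechanically regulated coactivator, had -0.33 (adjusted p = 0.0449), which did not pass without DOX 1 (0.121), DOX 3 (0.141), PBS 2 (0.117) or PBS 3 (0.166), in a range of 0.00521 to 0.306. Srf itself was at 17.8, 19.6 and 18.1 CPM in DOX 1 to 3, against 22.2, 22.0 and 23.5 CPM in PBS 1 to 3. Each DOX library lay below each PBS library, as in 22.3% of all genes tested, yet Srf missed the limit (log2 fold change -0.29, edgeR adjusted p = 0.0636).

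Of 9 tested intermediate filament genes and linkers besides Des and Vim, 3 fell. Nes, nestin, a filament protein that pairs with vimentin and desmin in growing or activated cells, had 2.96, 2.74 and 1.59 CPM in DOX 1 to 3, against 8.50, 6.55 and 7.96 CPM in PBS 1 to 3 (log2 fold change -1.65, SE 0.24, edgeR adjusted p = 0.000885). Each DOX library of Nes lay below each PBS library, as in 22.3% of all genes tested, while the groups of Des and Vim overlapped. Krt8 and Krt18, the keratin pair of hepatocytes and ducts, had log2 fold changes of -0.80 (adjusted p = 0.00121) and -0.56 (adjusted p = 0.00493). All 3 passed under the 15 alternatives.

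Of 17 tested S100 and annexin genes, 2 rose and 3 fell. Anxa7 had a log2 fold change of -0.55 (edgeR adjusted p = 0.00462) and passed under the 15 alternatives. S100a1, a calcium sensor best known from muscle, rose by 0.46 (adjusted p = 0.013), with 0.0533 without PBS 1 in a range of 0.00304 to 0.0985. S100a16 (0.33, adjusted p = 0.0282), Anxa2 (-0.38, adjusted p = 0.0293) and the scarce S100a14 (-1.17, adjusted p = 0.0409) were less steady. S100a16 passed only without DOX 2 or DOX 3 among the fits that left out 1 library, with 0.0884 without DOX 1, 0.0977 without PBS 1, 0.0882 without PBS 2 and 0.0621 without PBS 3 (range 0.0202 to 0.203). Anxa2 did not pass without DOX 1 (0.0731), DOX 2 (0.0647), PBS 1 (0.0891) or PBS 2 (0.121), in a range of 0.00745 to 0.121, nor S100a14 without DOX 1 (0.112), DOX 3 (0.121), PBS 1 (0.0673), PBS 2 (0.105) or PBS 3 (0.122), in a range of 0.0045 to 0.215. S100a4, a fibroblast and macrophage gene, had 9.44 ± 0.756 CPM in DOX and 8.03 ± 0.603 CPM in PBS (SD, n = 3 each; adjusted p = 0.244).

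Of 15 tested genes for actin monomers and turnover, 1 rose and 2 fell. Actg1, cytoplasmic gamma actin, had 207 ± 17.0 CPM in DOX and 298 ± 8.04 CPM in PBS (SD, n = 3 each; log2 fold change -0.53, edgeR adjusted p = 0.00604), and it passed with any single library left out. Actb, the other cytoplasmic actin, had 808 ± 101 CPM in DOX and 879 ± 17.5 CPM in PBS, with a log2 fold change of -0.12 that missed the limit (adjusted p = 0.515). Dstn, destrin, an actin-depolymerising factor, rose by 0.41 (adjusted p = 0.0191, with 0.0641 without DOX 1, 0.0568 without DOX 3, 0.0721 without PBS 1, 0.0726 without PBS 2 and 0.053 without PBS 3, range 0.00118 to 0.125). Tmsb10, a thymosin that binds actin monomers, had a log2 fold change of -0.48 (adjusted p = 0.0328, with 0.0848 without DOX 2, 0.117 without DOX 3, 0.107 without PBS 1 and 0.112 without PBS 2, range 0.00388 to 0.117).

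Ratios of 2 genes within each library do not depend on how the libraries were scaled, and 6 of them were compared with exact two-sided permutation tests, in which 3 libraries against 3 cannot give a p below 0.1. The pairs were chosen after the values were seen. The log2 FPKM ratio of Tagln to Tagln2 was -1.80, -1.91 and -2.21 in DOX 1 to 3, against -2.58, -3.75 and -2.83 in PBS 1 to 3. The groups did not overlap, with a difference of 1.08 (exact p = 0.1, adjusted p = 0.3 over the 6 ratios). In CPM every DOX library lay above every PBS library for Tagln and below for Tagln2. The order of this ratio was thus fixed in advance, and it adds no support. The ratio of Acta2 to Col3a1, the gene of a fibrillar collagen that myofibroblasts make, was -2.72, -3.17 and -2.93 in DOX 1 to 3, against -4.36, -5.56 and -4.51 in PBS 1 to 3. It was higher in each DOX library than in each PBS library, by 1.87 on average (exact p = 0.1, adjusted p = 0.3). This ratio mostly restates the lower Col3a1 in DOX (log2 fold change -1.47, against 0.27 for Acta2) and is no separate result. The other ratios overlapped between groups, with differences of 0.50 for Acta2 to Actb, 0.38 for Cnn1 to Cnn2, 0.49 for Myh11 to Myh9 and -0.16 for Tpm2 to Tpm1 (exact p of 0.4, 0.8, 0.4 and 0.7). None of the 6 reached an adjusted p under 0.05, which this number of libraries does not allow.

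**Figure D4:**
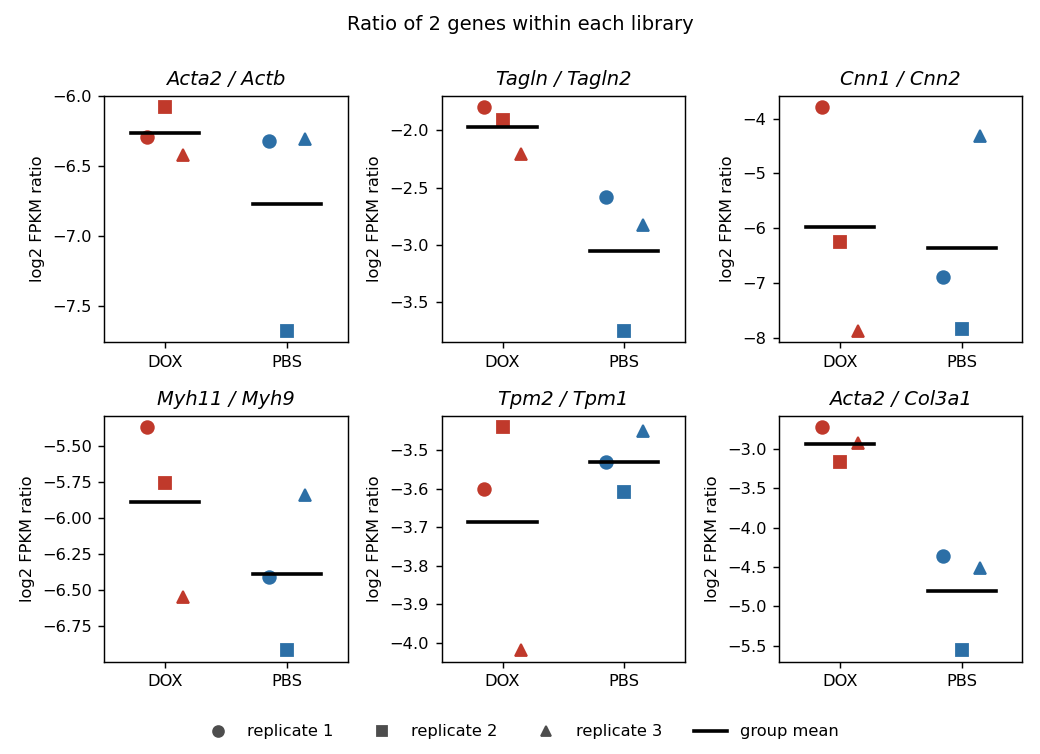
Log2 ratio of the FPKM of 2 genes within each library, DOX left and PBS right, with the replicate as the symbol and the mean of 3 libraries as the bar; the axes do not start at 0. The ratios Tagln to Tagln2 and Acta2 to Col3a1 are higher in every DOX library than in every PBS library, and the other 4 overlap. Pairs were picked after the levels of the single genes were seen, and those levels already set the order of the ratio Tagln to Tagln2.

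Markers of the cells that can carry these genes were measured beside them, as summed CPM of each list. Vascular smooth muscle and pericyte markers summed to 195 to 258 CPM in DOX and 173 to 247 CPM in PBS, with 1 of 8 tested genes higher. Stellate cell markers summed to 418 to 557 CPM in DOX and 459.9 to 565 CPM in PBS, with 1 of 12 higher and 3 lower, and portal fibroblast markers to 117 to 172 CPM in DOX and 147 to 160.0 CPM in PBS, with 3 of 10 lower. Hhip, of stellate cells, had a log2 fold change of 1.39 (edgeR adjusted p = 0.00249), and Thy1, of portal fibroblasts, of -1.15 (adjusted p = 0.00726), and both passed with any single library left out. Pdgfrb, the growth factor receptor of stellate cells, had -0.45 (adjusted p = 0.0168, with 0.0631 without DOX 3 and 0.079 without PBS 1), and Mfap4, a matrix protein of portal fibroblasts, -0.85 (adjusted p = 0.0232, with 0.0743 without DOX 1, 0.0796 without DOX 3 and 0.104 without PBS 3). The other stellate cell markers called lower were Lrat (-0.74, edgeR adjusted p = 0.0175) and Colec11 (-0.65, adjusted p = 0.0275). Fits with a library left out are not reported for Lrat and Colec11. The smooth muscle marker that rose was Mcam (0.40, adjusted p = 0.0424), which did not pass without DOX 1 (0.162), PBS 2 (0.13) or PBS 3 (0.138).

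Mesothelial markers summed to 10.2 to 13.2 CPM in DOX and 9.10 to 11.3 CPM in PBS, and the log2 fold changes of its 4 tested genes, from -0.89 to 0.53, did not pass. Among other cells that use vimentin, macrophage markers summed to 2374 to 2794 CPM in DOX and 2024 to 2230.4 CPM in PBS (3 of 15 higher, 2 lower), and endothelial markers to 218 to 265 CPM in DOX and 188 to 212 CPM in PBS (4 of 10 higher). Neutrophil markers summed to 49.6 to 101 CPM in DOX and 60.2 to 86.1 CPM in PBS (2 of 7 higher, 3 lower), and lymphocyte markers to 1.68 to 3.39 CPM in DOX and 5.11 to 7.58 CPM in PBS (1 of 7 lower). Bile duct markers, which bear on S100a6, the keratins and the annexins, summed to 577 to 835 CPM in DOX and 824 to 999 CPM in PBS (1 of 11 higher, 3 lower). Of the defining genes of striated muscle, Acta1 was at 0 to 0.0295 CPM in DOX and 0 in PBS, but Mylpf, a fast muscle myosin light chain, was at 0.762 to 0.847 CPM in DOX and 0.141 to 0.806 CPM in PBS, and Tnni2, a fast muscle troponin, at 0.254 to 0.423 CPM in DOX and 0.276 to 0.434 CPM in PBS. Neither Mylpf nor Tnni2 passed, while Tnnt2, a troponin, was higher in DOX (log2 fold change 1.59, adjusted p = 0.0024) within a list that summed to 5.81 to 9.45 CPM in DOX and 2.27 to 3.80 CPM in PBS. Hepatocyte markers summed to 96983 to 119095 CPM in DOX and 89990.2 to 94565 CPM in PBS (5 of 9 higher). Abundant genes weigh most in such sums. Alb of hepatocytes had 83125, 92734 and 70899 CPM in DOX 1 to 3, against 70083, 71435 and 72445 in PBS. Macrophage Gpnmb had 432, 327 and 856 CPM in DOX 1 to 3, against 187, 234 and 249 in PBS. Spp1 of bile ducts had 539.9, 424 and 634 CPM in DOX 1 to 3, against 765, 752 and 634 in PBS. Sums without these genes were not taken. Log2 fold changes were 0.72 for Vsig4 and -1.05 for Ccr2 among macrophage markers, and 0.69 for Pecam1 and 0.55 for Oit3 among endothelial ones. They were -1.51 for Mmp9 and -1.06 for Csf3r of neutrophils, -0.96 for Sox9 and -0.90 for Cftr of bile ducts, and 1.43 for Tat and 0.82 for Serpina1c of hepatocytes. These 10 genes passed with each library left out in turn (adjusted p of 0.000384 to 0.00604 with all libraries in edgeR). The lymphocyte gene Nkg7 had -1.54 (adjusted p = 0.0203, with 0.0654 without DOX 1, 0.0512 without DOX 2, 0.0813 without PBS 1 and 0.0524 without PBS 3). Actg2, Lmod1 and Pln stand in both the thin filament and the smooth muscle list, and S100a8 and S100a9 in both the S100 and the neutrophil list. In each list at least 1 read was found for every marker in the table, and the part of any of these cells in the values of the members was not tested.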

How the data were processed

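The authors deposited whole-number counts per gene symbol for 6 libraries, with no normalization, beside FPKM. Gene lengths implied by the deposited FPKM differed between libraries by at most 1.4e-07 in relative terms, so FPKM is the count over length and library total. The labels' protocols name an RNeasy kit for extraction and a SMARTER kit for the libraries. The submitters' processing notes list the builds GRCm38, mm10 and hg38 without a role; aligner, counter and use of strand: not given in the sources used here. Groups came from sample titles, and the table held 0 columns of other samples.

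DOX was tested against PBS with edgeR 4.0.16 in R 4.3.3 (quasi-likelihood, robust, TMM, filterByExpr with a minimum count of 10, group as the only term), with Benjamini-Hochberg adjustment over all 14681 genes. CPM, log2 fold changes and their 95% intervals come from that fit. The intervals and the limit set by a count of 0 take no account of PCR duplicates. On simulated counts over 14681 genes for this comparison, the share recovered by edgeR was 75% at a 2-fold change and 93% at a 4-fold change, and false calls made up 8.7%. A single draw was made, with 100 genes changed at each fold, against 4037 genes called in the data. The changed genes were drawn from all genes, so the shares do not give the power for the members. Alternatives were DESeq2 1.42.0, other scalings and filters, limma 3.58.1 on log2(FPKM + 1) and log2(FPKM + 0.1), a replicate block, and each library left out.

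The members and lists were chosen with earlier results of these data known. Text names all members; up to 6 called genes of smallest p in each of 6 pathway lists; called genes of 11 marker lists, at most 2 each; and the 5 genes most like Acta2 and like Vim, of which 1 is not reported here. Others, such as Myl12a, Actn4, Mylpf, Tnni2, Actg2, Lmod1, Srf, Actb, Alb, Gpnmb, Spp1, Lrat, Colec11, Col3a1 and the S100 genes that were not called, were chosen after their values were seen. In the 6 pathway lists 108 symbols include 2 older names not matched. Positions are from GENCODE M21.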

Additional observations from a re-analysis of the deposited data

How the results depend on the processing

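The finding that 0 of the 9 tested members passed in either direction held in 12 of 15 alternatives. The number higher was 1, in each case Tagln, with DESeq2, without PBS 1 and with the replicate block, so the fits that left out a library gave 0 to 1 higher. Replicate numbers did not pair the libraries: same-numbered libraries had correlations of deviations of 0.0861, -0.0731 and -0.134, and the numbers mark no shared animal or batch in the labels. With the replicate block Tagln had an adjusted p of 0.0163, 1 pathway gene was higher and 16 lower, and over all genes 1633 were higher and 1849 lower, against 1975 and 2062 without it; Cnn1 moved to a log2 fold change of 0.02. The scaling moved the balance over all genes. Library size alone gave 1028 higher and 3429 lower, limma on log2(FPKM + 0.1) gave 948 and 3227, and limma on log2(FPKM + 1) gave 917 and 3202. For pathway genes the same fits gave 0 higher and 35, 32 and 32 lower. Under them log2 fold changes were -0.11, -0.10 and -0.05 for Myh11, -0.11, -0.11 and -0.08 for Des, and -0.11, -0.12 and -0.11 for Vim. With single libraries left out, higher genes numbered 1208 to 2440 and lower genes 1305 to 2348 over all genes (1208 and 1329 without DOX 3, 1233 and 1305 without PBS 2, 1229 higher without PBS 3), and pathway genes 0 to 8 higher and 13 to 17 lower. The same fits gave log2 fold changes of -0.05 to 0.48 for Acta2, -0.23 to 0.46 for Myh11, -0.09 to 0.21 for Des, -0.08 to 0.13 for Vim and -2.01 to 1.60 for Cnn1. Without DOX 1 and PBS 3 together, 654 genes were higher and 724 lower, with 0 and 11 of the pathway genes. Of 791 values of single genes under an alternative, 640 kept their direction and side of the threshold, 125 no longer passed, 3 newly passed and 23 changed sign. The causes were not tested. Cnn1 and S100a6 had the fewest reads of the members, at most 64 and 2 in a library.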
